A study of Capra hircus with 2 samples.

Results

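Some miRNAs are abundant in leukocytes or induced on immune activation, and a small set of these was examined in goat endometrium before and around embryo attachment. The members were the known miRNAs named miR-142, miR-223, miR-150, miR-155, miR-146a or miR-146b in the deposited table, whatever the species in the name, the arm or the end annotation, with repeated names counted once. The rule gave 6 distinct names, listed in 8 entries, among 587 distinct known names. They belonged to miR-142 (2 names), miR-155 (2 names), miR-146a (1 name) and miR-223 (1 name). No name used here met the rule for miR-150 or miR-146b, and these miRNAs were not analysed here.

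The goats were multiparous Xinong Saanen dairy goats, 24 months old, mated naturally after oestrus synchronization. Pre-receptive endometrium (P) came from 10 goats killed at gestational day 5 and receptive endometrium (R) from 10 killed at day 15, with RNA of 9 goats per stage combined in 3 pools. The deposited table gives 1 normalized value (normalized expression, NE) per miRNA for R and 1 for P. There were therefore 2 libraries and no replicates, and each test below compares the R library with the P library and not the stages. The reads assigned to known miRNAs numbered 1904242 for R and 4046632 for P.

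miR-142 is transcribed throughout the blood cell lineages and is used as a general marker of leukocytes, while miR-223 is typical of granulocytes and monocytes and miR-150 of mature lymphocytes. miR-155 is induced when lymphocytes and macrophages are activated, and miR-146a is induced by NF-kB and dampens Toll-like receptor signalling through IRAK1 and TRAF6. The endometrium of ruminants contains lymphocytes and macrophages, and its immune cells respond to progesterone and to the interferon that the conceptus secretes around attachment. In whole tissue, fewer cells of a type and less RNA per cell cannot be told apart.

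The sequences counted under the member names are given first, because the start of a miRNA sets its seed (bases 2 to 8, in capitals), the part that pairs with target transcripts. In the names, L and R give bases missing (-) or added (+) at the left or right end relative to the database entry, and ss marks substitutions. The detected sequences, written 5′ to 3′ as DNA, were as follows.
cgr-miR-142-5p_L-2R+1: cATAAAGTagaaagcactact
cgr-miR-142-3p_L+1R+1: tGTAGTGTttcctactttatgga
hsa-miR-155-5p: tTAATGCTaatcgtgataggggt
hsa-miR-155-3p_2ss4CN10AG: cTCNTACAtgttagcattaaca
bta-miR-146a_R-1_1ss23GA: tGAGAACTgaattccataggtta
oan-miR-223-3p_1ss22AT: tGTCAGTTtgtcaaataccctt

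Only hsa-miR-155-5p was identical to its database entry, and the other 5 names differed from theirs. For miR-142 the seed on both arms was shifted relative to the hamster entries that gave the names, whereas the detected sequences are the forms usual in human and mouse. The hamster entries have these sequences, with their own bases 2 to 8 in capitals.
cgr-miR-142-5p: cCCATAAAgtagaaagcactac
cgr-miR-142-3p: gTAGTGTTtcctactttatgg
The detected miR-142-5p lacked 2 bases at the 5′ end and had 1 more at the 3′ end, so its seed was ATAAAGT in place of CCATAAA. The detected miR-142-3p had 1 additional base at each end, and its seed was GTAGTGT in place of TAGTGTT. The first 10 bases of the detected 5p sequence were the reverse complement of a stretch of the 3p sequence, the arrangement in which the arms of a hairpin pair.

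Counting positions from 1 at the 5′ end of the detected sequence, with the database base first, miR-146a carried G23A and lacked 1 base at the 3′ end, and miR-223-3p carried A22T. Both changes lay at the last base and left the seed as in the database. The miR-155-3p sequence carried A10G and C4N, where N is a base that was not read, so its seed was incomplete. The 6 members had 6 distinct seeds. Among the other known names and 621 predicted candidates, 1 known name and 0 candidates had a member's seed. This name was mmu-miR-3964_L+1_1ss6GA, which shares the first 19 of its 21 bases with the detected miR-142-5p and had 3.33 recovered reads in R and 1 in P.
mmu-miR-3964_L+1_1ss6GA: cATAAAGTagaaagcactaaa

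In the authors' conservation table of 23 species, a mir-142 hairpin was listed for 10 species, mir-155 for 8, mir-146a for 13 and mir-223 for 1, the platypus. A mir-146b hairpin was listed for 13 species although no mature name of miR-146b was analysed here. In the RefSeq annotation of the ARS1.2 goat assembly, MIR155 lies between the protein-coding genes MRPL39 and NCAM2, MIR146A between ATP10B and PTTG1, and MIR223 between VSIG4 and PABPC5. None of these 3 lies inside a protein-coding gene there.

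Between the libraries, both arms of miR-142 were higher in R, by 2.25-fold for 5p and 2.28-fold for 3p. miR-146a was 1.17-fold higher with an interval that included no difference, but was called higher when reads were scaled to clean or known reads. Those scalings called 30.1% to 50.0% of all tested names higher. miR-155-5p was 1.64-fold higher in P on the scale of the deposited values but showed no detectable difference with clean reads and was higher in R with known reads as the total, without a call on any of these scales. The 1 listed name of miR-223, a platypus entry with a substitution, was at the edge of detection, with 1 read in all. By their ratio of R to P, miR-142 stood above miR-146a and miR-146a above miR-155-5p. A scaling moves every name alike, so it cannot change this order. Database entries that match rRNA or tRNA, a list added after seeing the data, moved the same way as miR-142. Of 7 tested names 6 were called higher in R and 0 lower, beside 13.7% of all tested names called higher, the summed level was 8048 NE for R against 2111 NE for P, and the most abundant, hsa-mir-7641-2-p3_1ss22TC, had 3564 NE against 929 NE. The part of RNA quality in the differences between the members was not tested.

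The most common value above 0 was taken as the worth of 1 read, 0.860 NE in R and 1.16 NE in P. Reads were recovered by dividing by this worth, and they were whole numbers (within 0.01) for 85.2% of the names detected in R and 87.5% of those in P. The other names had fractions of a read and were rounded. Among them was miR-142-5p in R, whose fraction of 0.667 and that of 0.333 for mmu-miR-3964_L+1_1ss6GA add up to a whole read. Both miR-142 names are listed for 2 precursors with equal values. Of the names listed more than once in R, 30.6% had a whole number of reads in 1 entry and 95.9% when their entries were summed, so reads were summed over entries and NE was kept as listed. If the entries instead repeat the same reads, the miR-142 reads given here are too high by a factor of 2. The test was a two-sided exact binomial test of the reads in R and P with the expectation set by the worth of 1 read. A name with at least 1 NE in 1 library was tested, and it was called when its Benjamini-Hochberg adjusted p over all tested names was under 0.05 and its absolute log2 ratio was above 1. Reads were amplified by PCR and carried no molecular identifiers, and all intervals and limits given here cover counting error alone.

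miR-142-5p, the most abundant member, was listed at 5689 NE in R (95% exact Poisson interval 5593 to 5787) and 2524 NE in P (2449 to 2600). It had 13233 reads in R and 4340 in P over its 2 entries. It ranked 29 of 587 known names by NE in R and 51 in P. Its log2 ratio of R to P was 1.17 (95% exact interval 1.12 to 1.22), and it was called higher in R. With its entries added together its level was 11379 NE in R and 5047 NE in P.

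miR-142-3p, the opposite strand of the same hairpin, was listed at 423 NE in R (397 to 451) and 185 NE in P (166 to 207). It had 985 reads in R and 319 in P. Its log2 ratio was 1.19 (1.01 to 1.38, adjusted p = 3.9e-41, exact binomial test), and it was called higher in R as well. The intervals of both arms lay beyond a log2 ratio of 1, but with the reads of 1 entry in place of the sum that of miR-142-3p widened to 0.93 to 1.45, and with the median log2 ratio of all names set to 0 it was 0.96 to 1.33.

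miR-155-5p was listed at 1348 NE in R (1282 to 1417) and 2211 NE in P (2112 to 2312), from 1568 and 1901 reads. On this scale its log2 ratio was -0.71 (-0.81 to -0.62, adjusted p = 5.8e-47, exact binomial test), which is short of 2-fold, so it was not called, and the ratio was near 0 with clean reads and above 0 with known reads as the total. It ranked 70 by NE in R and 52 in P.

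miR-146a was listed at 348 NE in R (315 to 384) and 298 NE in P (262 to 337), from 405 and 256 reads. The 2 Poisson intervals overlapped. Its ratio of R to P was 1.17 (95% exact interval 0.998 to 1.37, adjusted p = 0.105, exact binomial test), and it was not called with the deposited values, whereas clean or known reads as the total gave log2 ratios of 1.01 to 1.75 and a call. Those scalings raise every name alike and called 30.1% to 50.0% of all tested names higher.

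miR-223-3p and miR-155-3p each had 1 read in R and 0 in P, or 0.860 NE and 0 NE. They did not reach 1 NE in either library and were not tested. For a count of 0 in P the exact Poisson upper limit is 4.29 NE, above the floor setting of 3 reads, or 3.49 NE, so no difference was detectable at this depth. Of all known names, 59 had this same pattern of 1 read in R and 0 in P. The 1 listed name of miR-223, a platypus entry with A22T, thus had 1 read in R, beside 14218 reads of miR-142, summed over entries, in the same library. Whether other forms of miR-223 were present was not tested, so this read is not a measure of all miR-223.

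**Figure D1:**
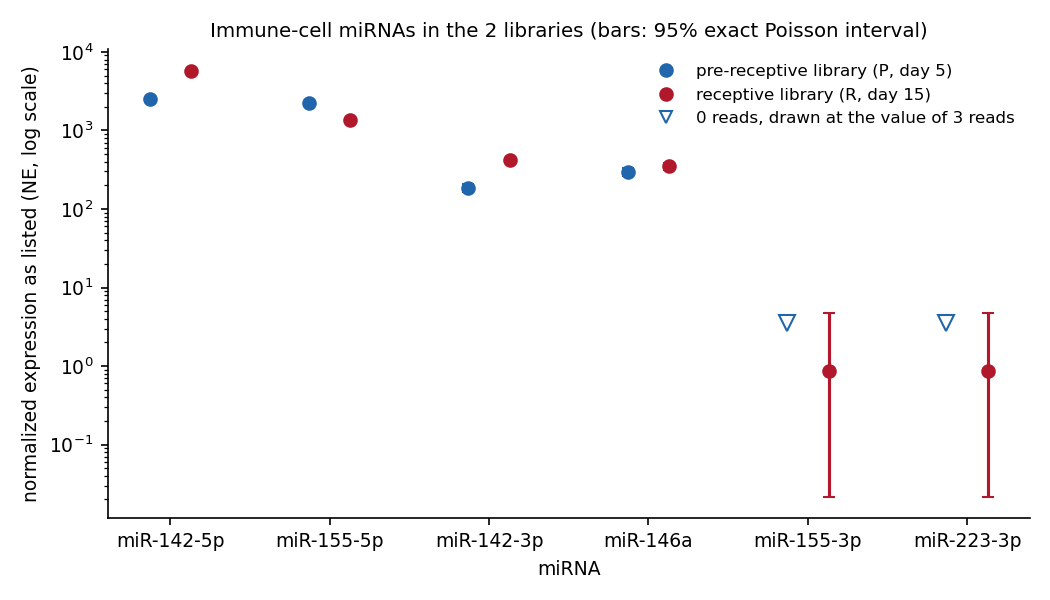
Normalized expression of each member as listed (vertical axis, NE, log scale) in the P library (blue) and the R library (red), with 95% exact Poisson intervals that are smaller than the points for the abundant members. miR-142-5p stands at 5689 NE in R and 2524 NE in P, and open triangles mark 0 reads at the value of 3 reads, 3.49 NE.

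Of the 6 members, 4 were tested, 2 were called higher in R and 0 were called lower. Among all 518 tested known names, 71 (13.7%) were called higher and 54 (10.4%) lower by the same rule. Both calls belong to 1 hairpin, so they are not separate observations of leukocyte miRNAs. The median log2 ratio was 0.70 over the 4 tested members and 0.05 over the 437 tested names with reads in both libraries, whose quartiles were -0.65 and 0.92. The log2 ratio of miR-142-5p exceeded that of 81.7% of these names, and that of miR-142-3p exceeded 81.9%. The corresponding shares were 54.2% for miR-146a and 23.1% for miR-155-5p.

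**Figure D2:**
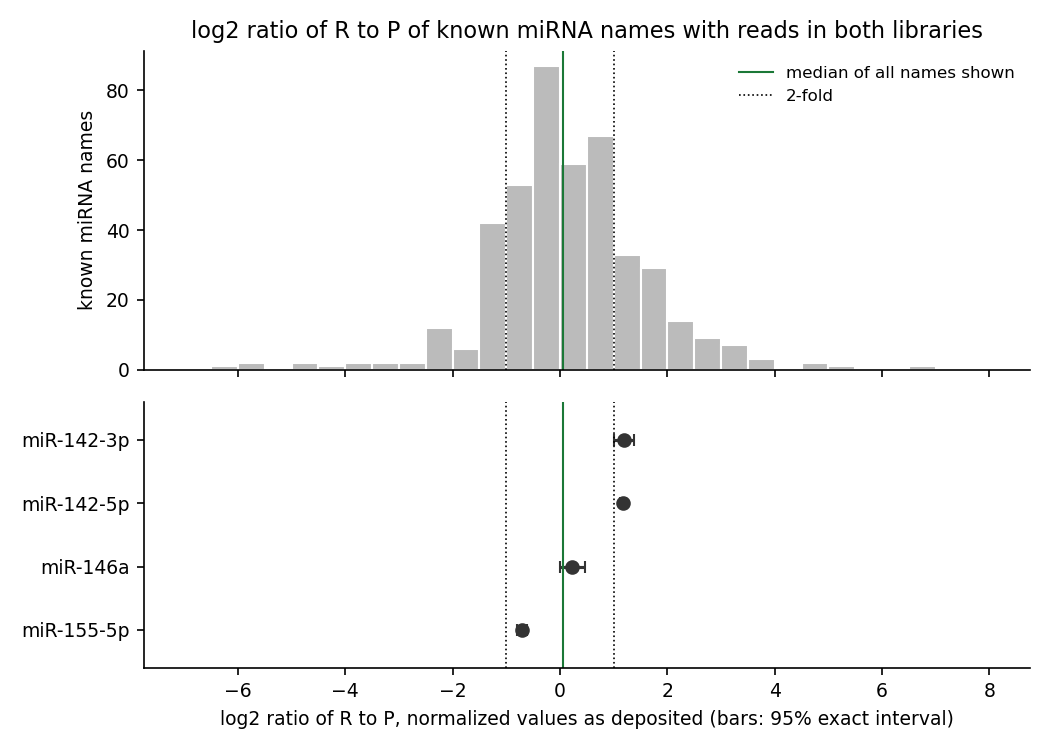
Distribution of the log2 ratio of R to P over the 437 tested known names with reads in both libraries (upper panel, number of names) and the ratios of the 4 tested members with 95% exact intervals (lower panel). The green line is the median of all names, 0.05, dotted lines mark 2-fold, and with the deposited values both miR-142 arms lie beyond 2-fold and miR-155-5p lies below 0, where known reads as the total place it above 0 and clean reads near 0, still left of the median.

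The scale between the libraries is not settled by the table, and it moves every name alike. The study's methods define NE by a miRNA's share of the clean reads, which makes 1 read worth more in the library with fewer clean reads. That library was R, where 1 read was worth less in the deposited values, so scaling to clean reads is the stated normalization and the deposited values follow another. Scaling the reads to all clean reads of each library raised the median log2 ratio by 0.78, scaling to the known reads without the most abundant name raised it by 1.08, and scaling to all known reads raised it by 1.52. The most abundant name, aja-miR-143_1ss22GT, had 1604780 reads in P and 336831 in R. Under these 3 scalings the log2 ratio of miR-142-5p was 1.96, 2.25 and 2.70, and that of miR-142-3p was 1.97, 2.27 and 2.71, and both remained called. miR-146a was called higher in R under each of the 3, with log2 ratios of 1.01, 1.30 and 1.75, while the share of all tested names called higher grew to 30.1%, 37.3% and 50.0%. miR-155-5p had log2 ratios of 0.07, 0.36 and 0.81 and was called under none of them. With clean reads its interval was -0.03 to 0.17 (adjusted p = 0.260, exact binomial test), so that no difference was detectable on that scale. Relative to the median of all names, which does not depend on the scaling, the log2 ratios were 1.12 for miR-142-5p, 1.14 for miR-142-3p, 0.18 for miR-146a and -0.76 for miR-155-5p.

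**Figure D3:**
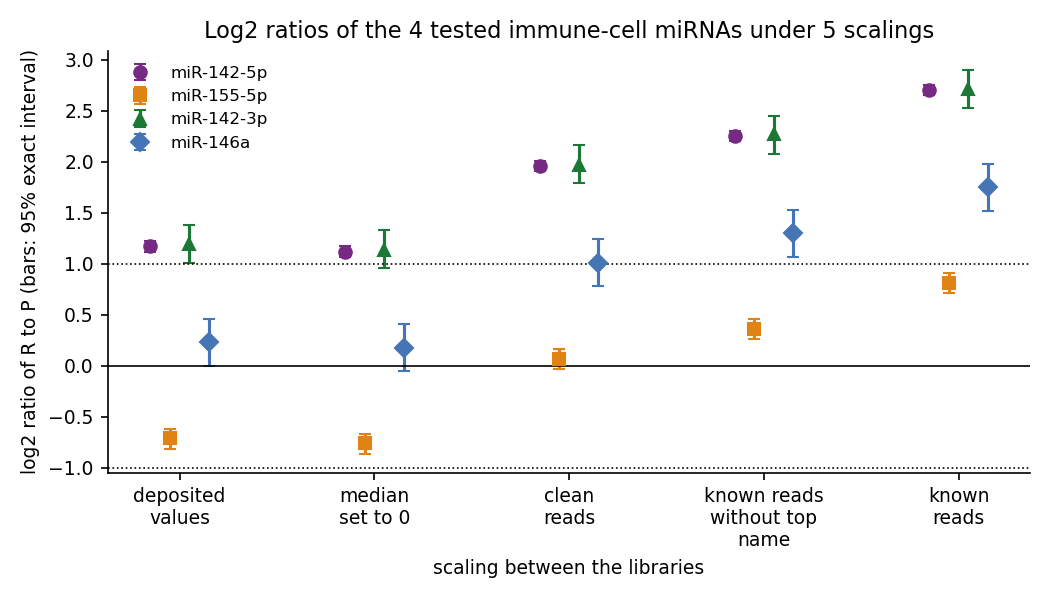
Log2 ratio of R to P of the 4 tested members (vertical axis, 95% exact intervals) with the deposited values and under 4 other scalings (horizontal axis), with dotted lines at 2-fold. miR-142-5p and miR-142-3p stay above 1 throughout, miR-146a reaches 1.01 with clean reads, and miR-155-5p moves from -0.71 with the deposited values to 0.81 with all known reads.

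Comparisons of 1 member with another inside the same libraries do not depend on the scale. The members with at least 10 reads in both libraries were 4, which gave 6 pairs, and 5 of the 6 differed in Fisher's exact test after adjustment over the pairs. In R there were 8.44 reads of miR-142-5p for each read of miR-155-5p, against 2.28 in P, and with the reads of 1 entry these were 4.22 and 1.14. The odds ratio was 3.70 (95% exact interval 3.43 to 3.99, adjusted p = 1.1e-253, Fisher's exact test). For miR-142-3p against miR-155-5p it was 3.74 (3.24 to 4.33, adjusted p = 7.0e-81, same exact test). With the reads of 1 entry the odds ratios were 3.70 and 3.73. The leukocyte miRNA thus stood higher relative to the activation-induced miR-155 in R than in P, by either arm.

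miR-146a and miR-155, both described as induced on immune activation, differed in their ratio of R to P. There were 0.258 reads of miR-146a for each read of miR-155-5p in R and 0.135 in P, an odds ratio of 1.92 (1.61 to 2.28, adjusted p = 6.2e-14, Fisher's exact test). Relative to miR-146a, miR-142-5p stood at 32.7 reads for each read in R and 17.0 in P (16.3 and 8.48 with the reads of 1 entry), an odds ratio of 1.93 (1.64 to 2.27, adjusted p = 1.4e-14, Fisher's exact test). The odds ratio of miR-142-3p to miR-146a was 1.95 (1.59 to 2.40, adjusted p = 1.1e-10, same exact test). miR-146a thus lay between miR-142 and miR-155-5p in its ratio of R to P.

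**Figure D4:**
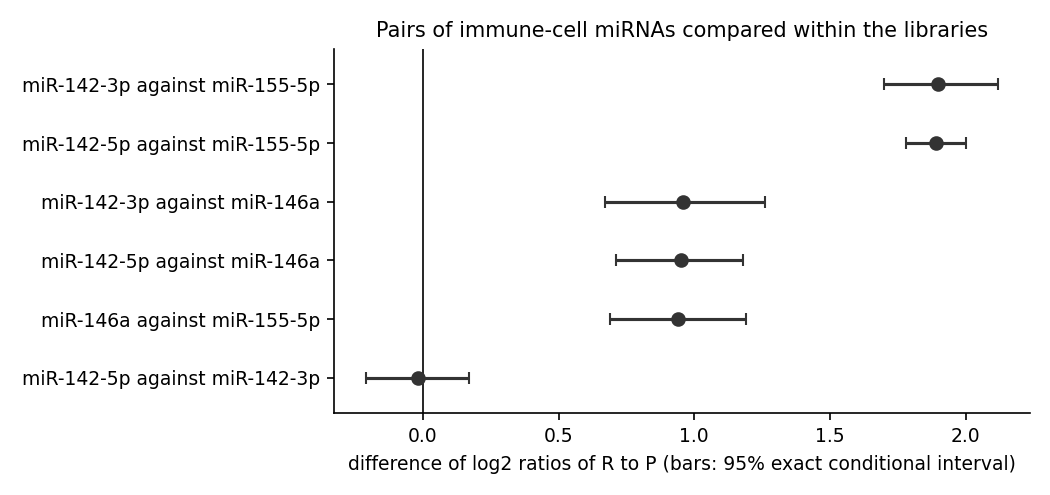
Differences of the log2 ratio of R to P between the members of each of the 6 pairs (horizontal axis, log2 odds ratio with 95% exact conditional interval, vertical line at no difference). The pair of miR-142 arms lies at -0.02 with an interval across 0, the pairs with miR-146a between 0.94 and 0.96, and those of miR-142 with miR-155-5p at 1.89 and 1.90.

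The remaining pair is that of the miR-142 arms. In R, 13.4 reads of the 5p arm were found for each read of the 3p arm, and in P 13.6. The 3p arm held 6.93% of the miR-142 reads in R (6.52% to 7.36%, exact), against 6.85% in P (6.14% to 7.61%). The odds ratio was 0.987 (0.864 to 1.13, adjusted p = 0.868, Fisher's exact test) and its interval spanned 1. For miR-155 the 3p arm had 1 read beside 1568 of the 5p arm in R, a share of 0.0637% (0.00161% to 0.355%), and 0 beside 1901 in P, where 3 reads would make 0.158% and the exact upper limit is 0.194%. The arm ratio of miR-155 was too uneven for a difference to be detectable at this depth.

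As a composition of the reads of all 6 members, miR-142-5p made up 81.7% of the R library's member reads (95% exact interval 81.1% to 82.3%) against 63.7% for P (62.5% to 64.8%). miR-155-5p made up 9.68% in R (9.23% to 10.1%) and 27.9% in P (26.8% to 29.0%). miR-146a made up 2.50% in R (2.27% to 2.75%) and 3.76% in P (3.32% to 4.23%). These shares depend on summing the entries of miR-142. With the reads of 1 entry, miR-142-5p made up 72.8% for R and 48.4% for P, miR-155-5p 17.3% and 42.4%, and miR-146a 4.46% and 5.71%, with the same directions.

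The authors' table of predicted targets includes 2 members. It lists 276 target rows for miR-142-5p and 330 for miR-142-3p, against a median of 578 rows per name, and 125 and 118 names had more rows. The target identifiers themselves were not used here. Transcript and gene identifiers differ on nearly every row and both are sorted, so the pairs of miRNA and target may be misaligned.

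Lists of miRNAs known from other cells of the uterus were set beside the members, and their part in the differences above was not tested. Most lists hold both arms or end variants of the same miRNA, so the names in a list are not all separate observations. Of the epithelial miRNAs, 11 of 15 tested names were called higher in R and 0 lower, beside 13.7% of all tested names called higher, with a summed level of 38572 NE for R against 6977 NE for P. The most abundant, hsa-miR-141-3p_R-1, rose to 28337 NE from 5791 NE, bta-miR-182 to 3519 NE from 242 NE, ptr-miR-203_L-1R+1 to 1897 NE from 230.3 NE and hsa-miR-141-3p_R+1 to 1673 NE from 252 NE. These miR-141-3p names are end variants of 1 miRNA, and hsa-miR-141-5p_1ss11TC, also called higher, is its other arm. Of the miRNAs of ciliated epithelium, 4 of 7 were called higher and 0 lower (13.7% of all names higher), with a summed level of 4871 NE for R against 1234 NE for P. hsa-miR-34c-5p rose to 2778 NE from 1090 NE and hsa-miR-449a to 1843 NE from 16.3 NE. miR-200b and miR-449c were not analysed here.

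Of the miRNAs of smooth and striated muscle, 9 of 10 were called lower in R and 0 higher, beside 10.4% of all names called lower. With all known reads as the total 5 were called lower, beside 11 of all 518 names. Their summed level was 292640 NE for R against 1883319 NE for P, nearly all of it aja-miR-143_1ss22GT (289634 NE against 1866274 NE). oar-miR-133_L+1 had 145 NE in R against 3558 NE in P and was called lower under every scaling. cfa-miR-145 (2123 NE against 11339 NE) and hsa-miR-145-3p_L-2R+1 (433 NE against 1335 NE) were called lower with the deposited values, but with all known reads as the total their log2 ratios shrank from -2.42 and -1.62 to -0.89 and -0.10 and neither was called. miR-133b and miR-206 were not analysed here.

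Of the erythroid, endothelial and fibroblast miRNAs, 0 of 6, 0 of 4 and 0 of 7 tested names were called with the deposited values, and 2, 3 and 2 were called higher with clean reads, which called 30.1% of all tested names higher. With all known reads as the total, which called 50.0% of all names higher, 2, 3 and 7 of them were called higher. On both scales the erythroid calls were aja-miR-144 and hsa-miR-144-3p, which have the same sequence and reads. Their summed levels were 6107 NE for R against 9425 NE for P (erythroid, or 5580 NE and 8749 NE with each sequence counted once), 32841 NE against 21287 NE (endothelial) and 97321 NE against 97155 NE (fibroblast). The most abundant were cgr-miR-486-5p (5052 NE in R against 8073 NE in P), hsa-miR-126-5p (23369 NE against 14955 NE) and oar-miR-199a-3p (82015 NE against 84822 NE), and the sign of miR-486-5p and miR-199a-3p reversed with clean or known reads.

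Other miRNAs described in lymphocytes were called in both directions, 1 of 19 tested names higher and 4 lower, beside 24.1% of all tested names called in either direction, with a summed level of 30476 NE for R against 75299 NE for P, or 30402 NE and 75251 NE with each of 17 sequences counted once. hsa-miR-17-5p, of a cluster active in proliferating lymphocytes, had 620.0 NE in R against 293 NE in P and was called higher. age-miR-19a_1ss23AT of the same cluster, named after its values were seen, was called lower at 90.3 NE against 191 NE with the deposited values and had a log2 ratio of 0.44 with all known reads as the total. oar-miR-181a (20920 NE against 55420 NE), which tunes antigen receptor signalling in T cells, hsa-miR-181c-5p_R+1 (4421 NE against 10612 NE) and mdo-miR-181b-5p (3170 NE against 7214 NE) were called lower with the deposited values, and their sign reversed with all known reads as the total. With clean reads 7 of the 19 were called higher and 0 lower, beside 30.1% of all tested names called higher. Those 7 include hsa-miR-20a-5p_R+1 and oan-miR-20a-5p_R+4, which have the same sequence and reads. miR-181d and miR-19b were not analysed here.

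Of the miRNAs described in monocytes and macrophages or after Toll-like receptor stimulation, 9 of 14 tested names were called higher in R and 0 lower, where 13.7% of all names were called higher, with a summed level of 4537 NE for R against 3339 NE for P. bta-miR-212 and hsa-miR-212-5p have the same sequence and reads, and with each sequence counted once 8 of 13 were called higher and the summed levels were 4520 NE and 3337 NE. The called names include both arms of miR-132 and both arms of miR-212, so they are not all separate observations. Also among them was hsa-miR-21-5p_R+2_1ss4CN, which has an unread base and had 26 reads in R and 2 in P. bta-miR-132 (272 NE against 117 NE), hsa-miR-187-3p_R+1 (339 NE against 12.8 NE) and rno-miR-147_R-1 (107 NE against 25.6 NE) were called higher under each scaling. The most abundant name, hsa-miR-424-5p_R-1, was not called at 1666 NE in R against 2065 NE in P, and its sign reversed with clean or known reads. The 1 listed name of miR-223, the member typical of the same cells, had 1 read in R and 0 in P.

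**Figure D5:**
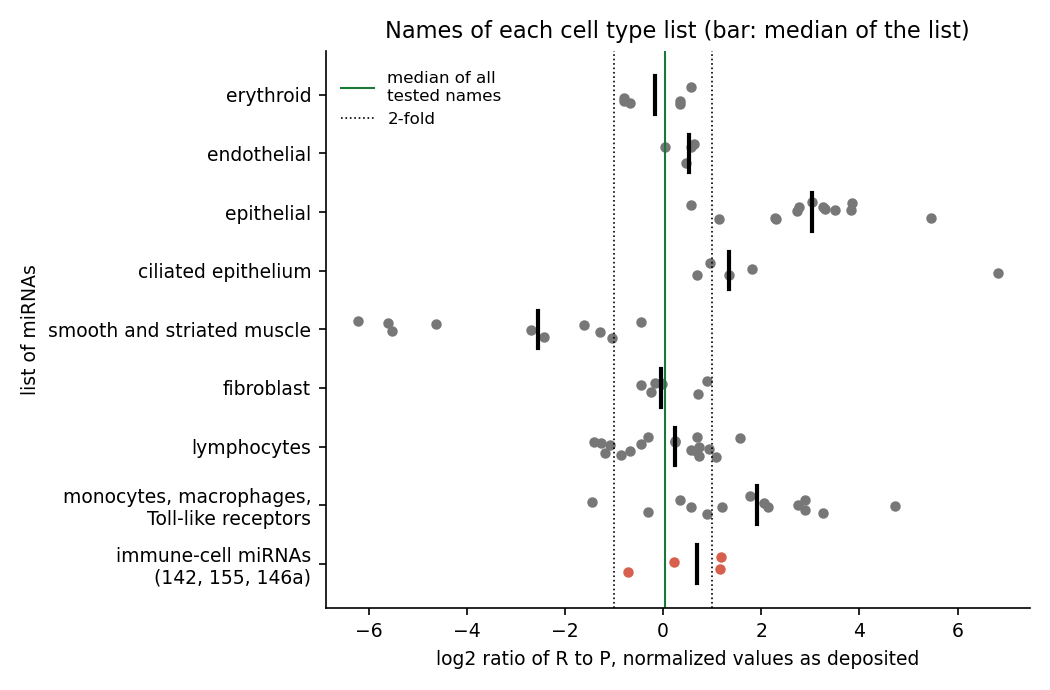
Log2 ratio of R to P with the deposited values (horizontal axis) for each tested name with reads in both libraries, by list, with the median of each list as a black bar and the members in red. The median of the members is 0.70, of the epithelial list 3.04 and of the muscle list -2.55, and that of the fibroblast list, -0.05, turns positive with clean or known reads, which shift all points to the right.

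Of 61 known names outside the members with at least 1000 reads in both libraries, those nearest to miR-142-5p in their log2 ratio were bta-miR-31_R+2 at 1.44 (95% exact interval 1.35 to 1.54), bta-miR-199b at 0.90 (0.86 to 0.94) and hsa-miR-9-5p_R-2 at 0.89 (0.81 to 0.97). The gaps to miR-142-5p were 0.27, 0.27 and 0.28, and none of these intervals overlapped that of miR-142-5p. Names with fewer reads lay nearer, with wider intervals that overlapped it, such as bta-miR-132 at 1.21 (0.88 to 1.55). The likeness is in 1 ratio between 2 libraries only.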

How the data were processed

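Small RNA of 1 P library and 1 R library was used. The authors filtered the reads with ACGT101-miR, mapped them to miRBase precursors and a genome, and deposited a normalized signal (NE) for each known miRNA. Normalized values of the candidate table were left out, because its R and P columns carry the value steps of the opposite libraries of the known table, and only its sequences were searched. The labels of the known table were kept, since its values stand under the same libraries in the authors' published table of differences. Among known miRNAs, the paper's stem-loop RT-qPCR also gave miR-449a, miR-182, miR-183 and miR-187 as higher in receptive endometrium, while miR-200a did not follow the sequencing. The authors' fold changes and P-values were not used.

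Each recovered read count was rounded and tested by the exact binomial test. Fisher's exact test with conditional odds ratios was used for pairs of at least 10 reads. A name at 0 in 1 library was set to 3 reads for its fold. The tests rest on reads recovered from normalized values and not on deposited counts. Members and lists were chosen with earlier results of these data known. Named miRNAs were all members, the most abundant name of each list and its called names with at least 100 NE (up to 4 per list), names sharing a member's seed, and the 3 nearest names with at least 1000 reads. The call procedure was tested on simulated data. The alternatives were other scalings, pseudocounts, tests, limits and filters. Values were computed under Python 3.11.15 using scipy 1.17.1, numpy 2.4.6 and pandas 2.3.3, and drawn by matplotlib 3.10.9.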

Additional observations from a re-analysis of the deposited data

How the results depend on the processing

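Both miR-142 arms kept their direction and their call under every alternative run for them. The scalings to clean and known reads raise every ratio, so they could not undo these calls. With 1 read added to each count, the pair and arm comparisons kept their side of the threshold. With reads scaled to clean reads, to known reads without the most abundant name and to all known reads, miR-155-5p turned from -0.71 to log2 ratios of 0.07 (no detectable difference), 0.36 and 0.81, and miR-146a passed the limits at 1.01, 1.30 and 1.75. Each of these scalings called 3 members in place of 2. The known names called were 125 (71 higher and 54 lower, 56.8% higher). Under the same 3 scalings 156, 193 and 259 were called higher and 18, 16 and 11 lower (89.7%, 92.3% and 95.9% higher), with totals of 209 without the most abundant name and 270 with all known reads. With an interval wholly beyond 2-fold, 74 were called, 43 higher and 31 lower. Fisher's exact test against clean reads called 78 higher and 35 lower (69.0% higher). A minimum of 10 reads in both libraries left 278 tested names, of which 47 were called higher.

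With at least 10 reads in both libraries, the median log2 ratio moved from -0.16 to -0.68 for the erythroid list, from 1.35 to 1.15 for ciliated epithelium, from -2.55 to -2.02 for muscle, from 0.24 to -0.03, a change of sign, for lymphocytes and from 1.91 to 1.77 for monocytes and macrophages. With 1 value for each miRNA number and arm, it was -0.36, 1.56, -2.42, -0.05 and 2.06 for these lists and 3.15 in place of 3.04 for the epithelial list. Counting the reads of 1 entry for names listed more than once, an alternative chosen after seeing the data, called 120 known names and the same number of members. Counting each sequence of a list once, also chosen after seeing the data, left 8 names in place of 9 called higher among monocytes and macrophages. A scaling shifts all ratios alike by construction, and for the other shifts the cause was not tested. No paired analysis was possible because each group has 1 library. The listed names of miR-223 and miR-155-3p had 1 read each, too few for a difference to be detectable, and the reason for these low counts was not tested.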
